A study of Homo sapiens with 6 samples.

Results

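The 43 genes described here are genes of glucose import, glycolysis, lactate export and the response to low oxygen. They were chosen by name as a pathway list, with earlier results of these data known. All 43 had a row among the 56505 rows of the count table. Of these, 41 passed the filter on low counts and were tested, and 2, ALDOC and EGLN2, had no count in any library. Total RNA was sequenced from cells labelled MDA-MB-468 in 2 groups of 3 libraries. This established line comes from a human breast carcinoma without hormone receptors or HER2 and is classed as basal-like. The first group carried a short hairpin RNA in the pLK0 vector against cytokeratin 5, the protein of KRT5 (shCK5-22 in the titles, shCK5 below). The second carried a control hairpin in the same vector (shControl). Both were grown in serum-containing medium, and the labels name no treatment, no oxygen level and no glucose level. A single knockdown hairpin was sequenced, so its off-target effects cannot be told apart from the loss of KRT5. The labels do not call the replicates separate cultures, so the p-values rest on a spread between libraries that may be technical only.

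Between 75460940 and 83594772 counts were made per shCK5 library, against 68810882 to 75529699 per shControl library. KRT5 had 16.42 ± 0.845 CPM in shCK5 and 2044 ± 23.3 CPM in shControl (SD, n = 3 each), where CPM is the usual counts-per-M scaling by effective library size. MDA-MB-468 is known for deletions of RB1 and SMAD4. RB1 had 101 ± 2.16 CPM in shCK5 and 1.996 ± 0.136 CPM in shControl, and SMAD4 had 16.86 ± 0.547 CPM in shCK5 and 0.2346 ± 0.138 CPM in shControl. The shCK5 libraries thus stand against their cell line label at these genes, and because all 3 do so, a difference between cells of another origin cannot be told apart from an effect of the hairpin in any result below. Epithelial markers fell in 7 of 7 members, with summed levels of 1201 to 1217 CPM in shCK5 and 6363 to 6522 CPM in shControl. KRT5, the target of the hairpin, is among these 7, so its part of the fall is not independent of the design. Mesenchymal markers rose in 5 of 5, at 1299 to 1317 CPM in shCK5 and 55.87 to 59.74 CPM in shControl. Of all genes tested, 41.7% were called lower and 40.9% higher. Markers of other cell types stayed low: the 6 leukocyte markers summed to 2.378 to 3.137 CPM in shCK5 and 15.58 to 18.26 CPM in shControl, with 3 of 3 tested members lower. The 6 fibroblast markers summed to 12.12 to 14.06 CPM in shCK5 and 13.29 to 13.93 CPM in shControl (1 of 2 tested higher, 1 lower). The 5 endothelial markers summed to 5.98 to 6.941 CPM in shCK5 and 4.463 to 6.368 CPM in shControl (2 higher, 3 lower). The part of these markers in the results was not tested. In bulk RNA, fewer cells of a type and less RNA per cell cannot be told apart.

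Glycolysis splits glucose into pyruvate in the cytosol. Lactate dehydrogenase interconverts pyruvate and lactate, and pyruvate dehydrogenase commits pyruvate to the mitochondrion. Most steps are run by several gene copies with their own kinetics and tissue range, so cells can change the form in use without changing the pathway. Under low oxygen the transcription factors HIF-1 and HIF-2, whose alpha subunits are encoded by HIF1A and EPAS1, escape hydroxylation by the EGLN enzymes and raise many of these genes, a programme often active in basal-like breast tumours.

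More of the 41 tested genes were higher in shCK5 than lower. At an adjusted p under 0.05 over all genes (edgeR, Benjamini-Hochberg), 39 of them were called, 29 higher and 10 lower, and PDK1 and EPAS1 were not called. These counts stand against a background in which 82.7% of all 19567 genes tested were called, 40.9% higher and 41.7% lower, so that being called was itself common. The share called higher was 70.7% among the 41 genes. Their median log2 fold change was 0.73, against -0.02 for all genes tested. Because the genes were chosen with earlier results of these data known, this lean is not evidence about the pathways as a whole. Among 87 other tested genes of these and linked pathways, 46% were higher and 44.8% lower, with a median of 0.01. Above 2-fold, 17 of the 41 genes were higher and 4 lower, and of the 87 other genes 13 were higher and 21 lower. The background above 2-fold was 19.6% higher, 24.4% lower and 44% in either direction. In 40 of the 41, no shCK5 library lay within the range of the shControl libraries or the reverse, as in 84.2% of all genes tested. The 18 genes of the glycolytic enzymes took 1.112% to 1.127% of all counts in the shCK5 libraries and 0.835% to 0.8439% in the shControl libraries. Scaling by library size alone shifted the median of all genes tested by -0.14. PDK1 and EPAS1 had smaller log2 fold changes than this, and their signs turned with that scaling.

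**Figure D1:**
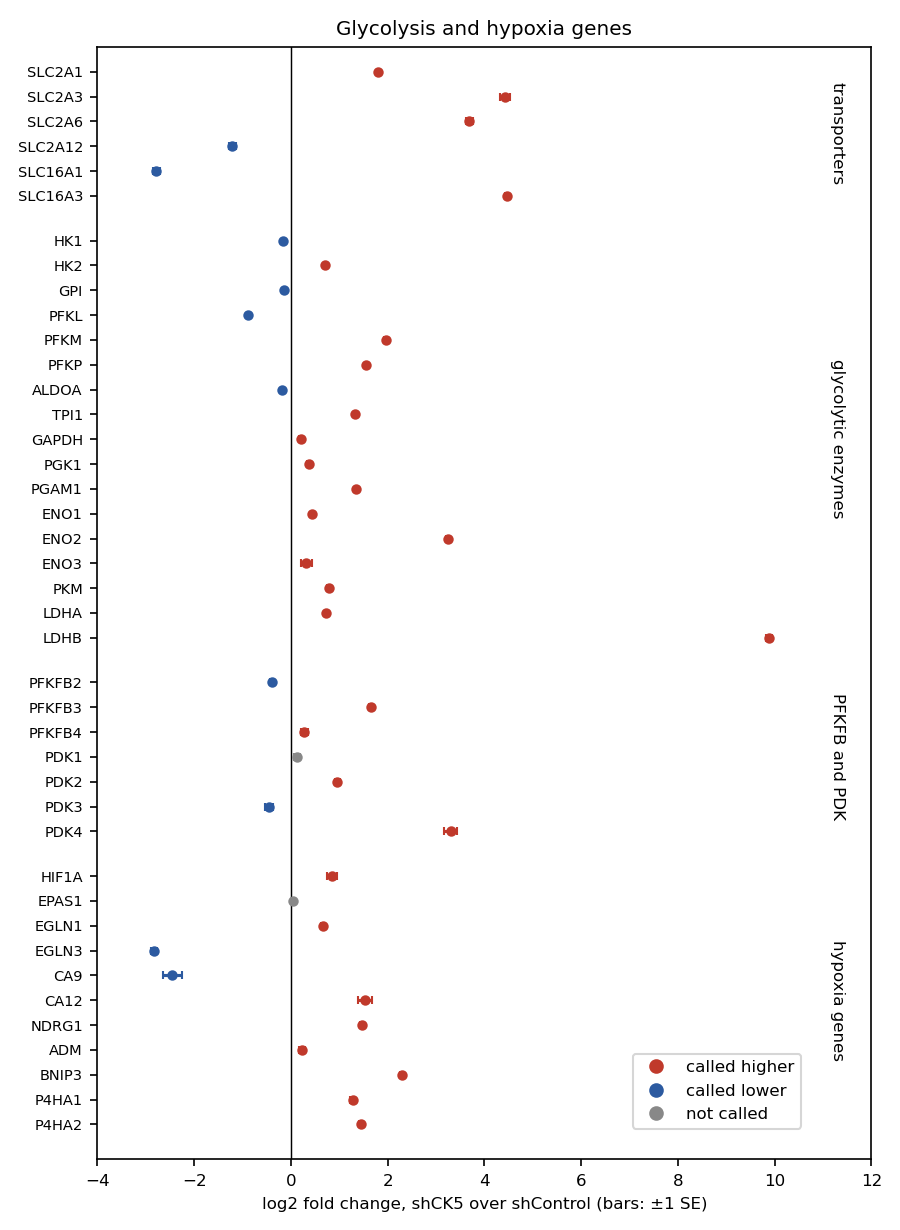
Log2 fold change of the 41 tested genes, shCK5 over shControl, by role from top to bottom, with bars of 1 SE from edgeR (n = 3 libraries a group). LDHB at 9.88 stands far to the right of all others, and SLC16A1, EGLN3 and CA9 form the left edge between -2.83 and -2.45.

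Among the glucose transporters chosen for the pathway list, SLC2A1, SLC2A3 and SLC2A6 were higher in shCK5 and SLC2A12 was lower. Glucose transporters outside that list moved in both directions, with log2 fold changes of -5.50 for SLC2A10 and 2.68 for SLC2A13. SLC2A1, which encodes GLUT1, the main glucose transporter of most cancer cells, had 461, 473.9 and 465 CPM in shCK5, against 137.4, 133.6 and 132.2 CPM in shControl (log2 fold change 1.80, SE 0.0271; edgeR adjusted p = 1.82e-26). Its 3 shCK5 libraries all lay more than 3-fold above the shControl ones. SLC2A3, which encodes GLUT3, a high-affinity transporter typical of neurons, had 18.2, 18.28 and 18.13 CPM in shCK5, against 0.6711, 0.865 and 0.9894 CPM in shControl (log2 fold change 4.43, SE 0.102; edgeR adjusted p = 1.13e-22). Reads of SLC2A3 may be shared with its near-identical neighbour SLC2A14, which fell to 1.078 ± 0.256 CPM in shCK5, against 6.206 ± 0.45 CPM in shControl, so the split between these copies is uncertain. SLC2A6, a lysosomal member of the family, reached 30.16 ± 0.582 CPM in shCK5, against 2.332 ± 0.27 CPM in shControl, and SLC2A12, which encodes GLUT12, fell to 5.931 ± 0.342 CPM in shCK5, against 13.76 ± 0.571 CPM in shControl. In v29 of the GENCODE annotation, 38.85% of the exon bases of SLC2A12 also lie in exons of TBPL1 on the other strand, and without a stated strand setting their reads cannot be told apart. Per kilobase of exon, SLC2A1 kept 88.5% of the counts of these transporters in shCK5 and 88% in shControl. SLC2A12 held 1.19% in shCK5 and 9.53% in shControl, while SLC2A6 held 7.64% in shCK5 and 2.04% in shControl.

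The early, energy-consuming steps changed in form, and the phosphofructokinase-1 step also in sum. Hexokinases trap glucose in the cell by phosphorylation. HK1, the widely expressed form, had 269.8 ± 8.07 CPM in shCK5 and 301.1 ± 4.37 CPM in shControl (log2 fold change -0.16), and HK2, the insulin- and hypoxia-responsive form, had 95.08 ± 2.6 CPM in shCK5 and 58.23 ± 1.19 CPM in shControl (0.71). Summed, the pair had 364.9 ± 9.87 CPM in shCK5 and 359.4 ± 3.25 CPM in shControl, a difference smaller than the spread between the shCK5 libraries. GPI, the next enzyme, was slightly lower (282 ± 4.96 CPM in shCK5, 310.5 ± 0.76 CPM in shControl). Phosphofructokinase-1, the committed step, is a tetramer built from liver (PFKL), muscle (PFKM) and platelet (PFKP) subunits. PFKP had 447.7, 446.3 and 442.9 CPM in shCK5, against 153.7, 152.9 and 145.4 CPM in shControl (log2 fold change 1.56, SE 0.0277; edgeR adjusted p = 4.60e-25). PFKL went the other way, with 119.1, 122.2 and 116.6 CPM in shCK5, against 220.3, 221.2 and 216.7 CPM in shControl (-0.88, SE 0.0279; edgeR adjusted p = 9.95e-20). Neither gene's groups overlapped. PFKM rose to 56.61 ± 1.63 CPM in shCK5, against 14.46 ± 0.618 CPM in shControl. Summed, the 3 subunits had 621.6 ± 5.54 CPM in shCK5 and 384.5 ± 7.38 CPM in shControl. Per kilobase of exon, PFKP made up 81.4% ± 0.336 of the subunit counts in shCK5 and 54% ± 0.459 in shControl, and PFKL 11.8% ± 0.197 in shCK5 and 42.6% ± 0.511 in shControl. PFKP led in both groups, and PFKM was the least abundant.

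The PFKFB enzymes make and break fructose-2,6-bisphosphate, the activator of phosphofructokinase-1. PFKFB3, the form with the highest kinase activity, rose to 87.21, 89.6 and 91.67 CPM in shCK5, against 29.29, 28.57 and 27.54 CPM in shControl (log2 fold change 1.65, SE 0.0366; edgeR adjusted p = 5.23e-23). PFKFB2, the heart form, fell to 29.93 ± 1.1 CPM in shCK5, against 39.27 ± 0.867 CPM in shControl, and PFKFB4, the testis form, had 11.9 ± 0.293 CPM in shCK5 and 9.794 ± 0.682 CPM in shControl. The call of PFKFB4 was lost when libraries were scaled by size alone (log2 fold change 0.15; edgeR adjusted p = 0.0558). PFKFB3 held 75% ± 0.103 of the family's counts per kilobase in shCK5 and 46% ± 0.937 in shControl.

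Lower glycolysis was higher in shCK5 at every step but the aldolase one. ALDOA, the muscle-type aldolase, had 770 ± 19.7 CPM in shCK5 and 876.8 ± 5.42 CPM in shControl (log2 fold change -0.19); 53.5% of its exon bases lie in exons of other genes in GENCODE, so its level is uncertain. ALDOC, the brain form, was listed at 0 throughout, as were SPAG5 and PIGS, which lie near it on chromosome 17. SPAG5 encodes a spindle protein of dividing cells, so the 0 of ALDOC was not read as lack of expression. TPI1, which interconverts the triose phosphates, had 503 ± 6.55 CPM in shCK5 and 201 ± 2.98 CPM in shControl (1.32). PGAM1, which moves the phosphate group of 3-phosphoglycerate, had 545.8 ± 10.8 CPM in shCK5 and 214.4 ± 0.436 CPM in shControl (1.35). These 2 enzymes each changed by about 2.5-fold (2.5 for TPI1 and 2.55 for PGAM1). GAPDH, a common reference gene in expression assays, differed less: it had 1462, 1573 and 1502 CPM in shCK5, against 1297, 1328 and 1321 CPM in shControl (0.20, SE 0.0272; edgeR adjusted p = 2.64e-07). With libraries scaled by size alone its log2 fold change was 0.06 (edgeR adjusted p = 0.0346). PGK1, the first ATP-forming enzyme, had 518.6 ± 13.5 CPM in shCK5 and 401.1 ± 13.8 CPM in shControl (0.37), and PKM, which encodes pyruvate kinase, 2785 ± 62.3 CPM in shCK5 and 1624 ± 35.1 CPM in shControl (0.78). PKM1 and PKM2 are splice forms of that gene and cannot be separated in counts per gene. Rows named as processed copies of these genes held few reads, at most 4.97% of the parent's counts for TPI1 in shControl and 4.78% in shCK5.

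Among enolases, the neuronal form rose. ENO2, known as neuron-specific enolase (ENSG00000111674.8, chromosome 12, 6913745 to 6923698, plus strand, GRCh38), had 87.96, 93.36 and 90.2 CPM in shCK5, against 10.42, 8.801 and 9.281 CPM in shControl (log2 fold change 3.25, SE 0.0489; edgeR adjusted p = 1.69e-26). Every shCK5 library was over 8-fold above every shControl library. ENO1, the ubiquitous form, had 1877 ± 26.1 CPM in shCK5 and 1381 ± 8.48 CPM in shControl (0.44), and ENO3, the muscle form, 5.209 ± 0.6 CPM in shCK5 and 4.151 ± 0.527 CPM in shControl (0.32). ENO3 lost its call without shCK5 replicate 3 (edgeR adjusted p = 0.0689), without shControl replicate 3 (0.0737) and with scaling by library size alone (0.126). ENO1 still led in both groups, and the share of ENO2 per kilobase was 5.59% ± 0.0859 in shCK5 and 0.837% ± 0.0739 in shControl.

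The largest change of all 41 was in lactate dehydrogenase. This enzyme is a tetramer of A subunits (LDHA), which favour lactate formation, and B subunits (LDHB), which favour its oxidation. LDHB (ENSG00000111716.12, chromosome 12, 21635342 to 21757857, minus strand, GRCh38, protein-coding) had 25995, 25742 and 24722 counts in shCK5, or 327.5, 337.6 and 341.8 CPM. It had 26, 30 and 24 counts in shControl, or 0.349, 0.3761 and 0.3344 CPM. Every shControl library was near 0, and the mean level was 950-fold higher in shCK5 (log2 fold change 9.88, SE 0.0574; edgeR adjusted p = 3.22e-34). Among all 19567 genes tested, 87 had a log2 fold change at least as high, LDHB included. LDHA rose by less, to 1545, 1509 and 1487 CPM in shCK5, against 897.1, 920.7 and 924.2 CPM in shControl (0.73, SE 0.0252; edgeR adjusted p = 6.33e-19). Per kilobase of exon, LDHB made up 31.6% ± 0.885 of lactate dehydrogenase counts in shCK5 and 0.0804% ± 0.00487 in shControl. LDHA was the more abundant form in both. Of the exon bases of LDHB, 33.42% are shared with the same-strand gene AC010197.2 in GENCODE. In the authors' counts some LDHA reads may stand in other rows, since pseudogene rows named after LDHA together held 2.41% of its counts in shCK5 and 0.427% in shControl.

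Lactate transporters showed the clearest exchange of one form for another. SLC16A3 encodes MCT4, the low-affinity lactate exporter of glycolytic cells (ENSG00000141526.16, chromosome 17, 82228397 to 82261129, plus strand, GRCh38). It had 291.8, 312.1 and 299.2 CPM in shCK5, against 13.41, 13.77 and 13.54 CPM in shControl (log2 fold change 4.47, SE 0.0365; edgeR adjusted p = 1.33e-31). SLC16A1 encodes MCT1, a high-affinity transporter that carries lactate in either direction (ENSG00000155380.11, chromosome 1, 112911847 to 112957013, minus strand). It had 3.855, 4.17 and 3.844 CPM in shCK5, against 27.19, 27.53 and 26.62 CPM in shControl (-2.78, SE 0.0643; edgeR adjusted p = 1.28e-22). The groups lay far apart for both genes and in opposite directions. Per kilobase, SLC16A3 held 97.8% ± 0.0432 of the pair's counts in shCK5 and 22.8% ± 0.279 in shControl. The log2 ratio of SLC16A1 to SLC16A3 counts was -6.25 ± 0.0292 in shCK5 and 1.00 ± 0.0228 in shControl, a 152-fold change that needs neither scaling nor gene length. Summed, the pair had 305 ± 10.4 CPM in shCK5 and 40.69 ± 0.572 CPM in shControl. BSG, which encodes basigin, the chaperone of both transporters, had 806 ± 13.6 CPM in shCK5 and 420.5 ± 2.62 CPM in shControl (0.94), and this gene was picked after seeing its values.

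Pyruvate dehydrogenase kinases, which switch off the entry of pyruvate into the mitochondrion, moved apart by form. PDK4, a starvation-induced form, had 8.818, 7.003 and 7.466 CPM in shCK5, against 0.8054, 0.8023 and 0.7525 CPM in shControl (log2 fold change 3.30, SE 0.132; edgeR adjusted p = 1.44e-17). All 3 shCK5 libraries were above 7 CPM and all shControl libraries below 1 CPM. PDK2, a widely expressed form, had 24.41 ± 0.388 CPM in shCK5 and 12.59 ± 0.1 CPM in shControl (0.96), and PDK3 7.783 ± 0.0804 CPM in shCK5 and 10.61 ± 1.06 CPM in shControl (-0.45). PDK1, a target of HIF-1, did not pass the test, with 13.91 ± 0.633 CPM in shCK5 and 12.82 ± 0.349 CPM in shControl (0.12, SE 0.0615; edgeR adjusted p = 0.0805). PDK4 made up 19.8% ± 2.08 of the family's counts per kilobase in shCK5 and 3.18% ± 0.232 in shControl. For PDK2, 38.55% of exon bases lie in exons of SAMD14 on the other strand.

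**Figure D2:**
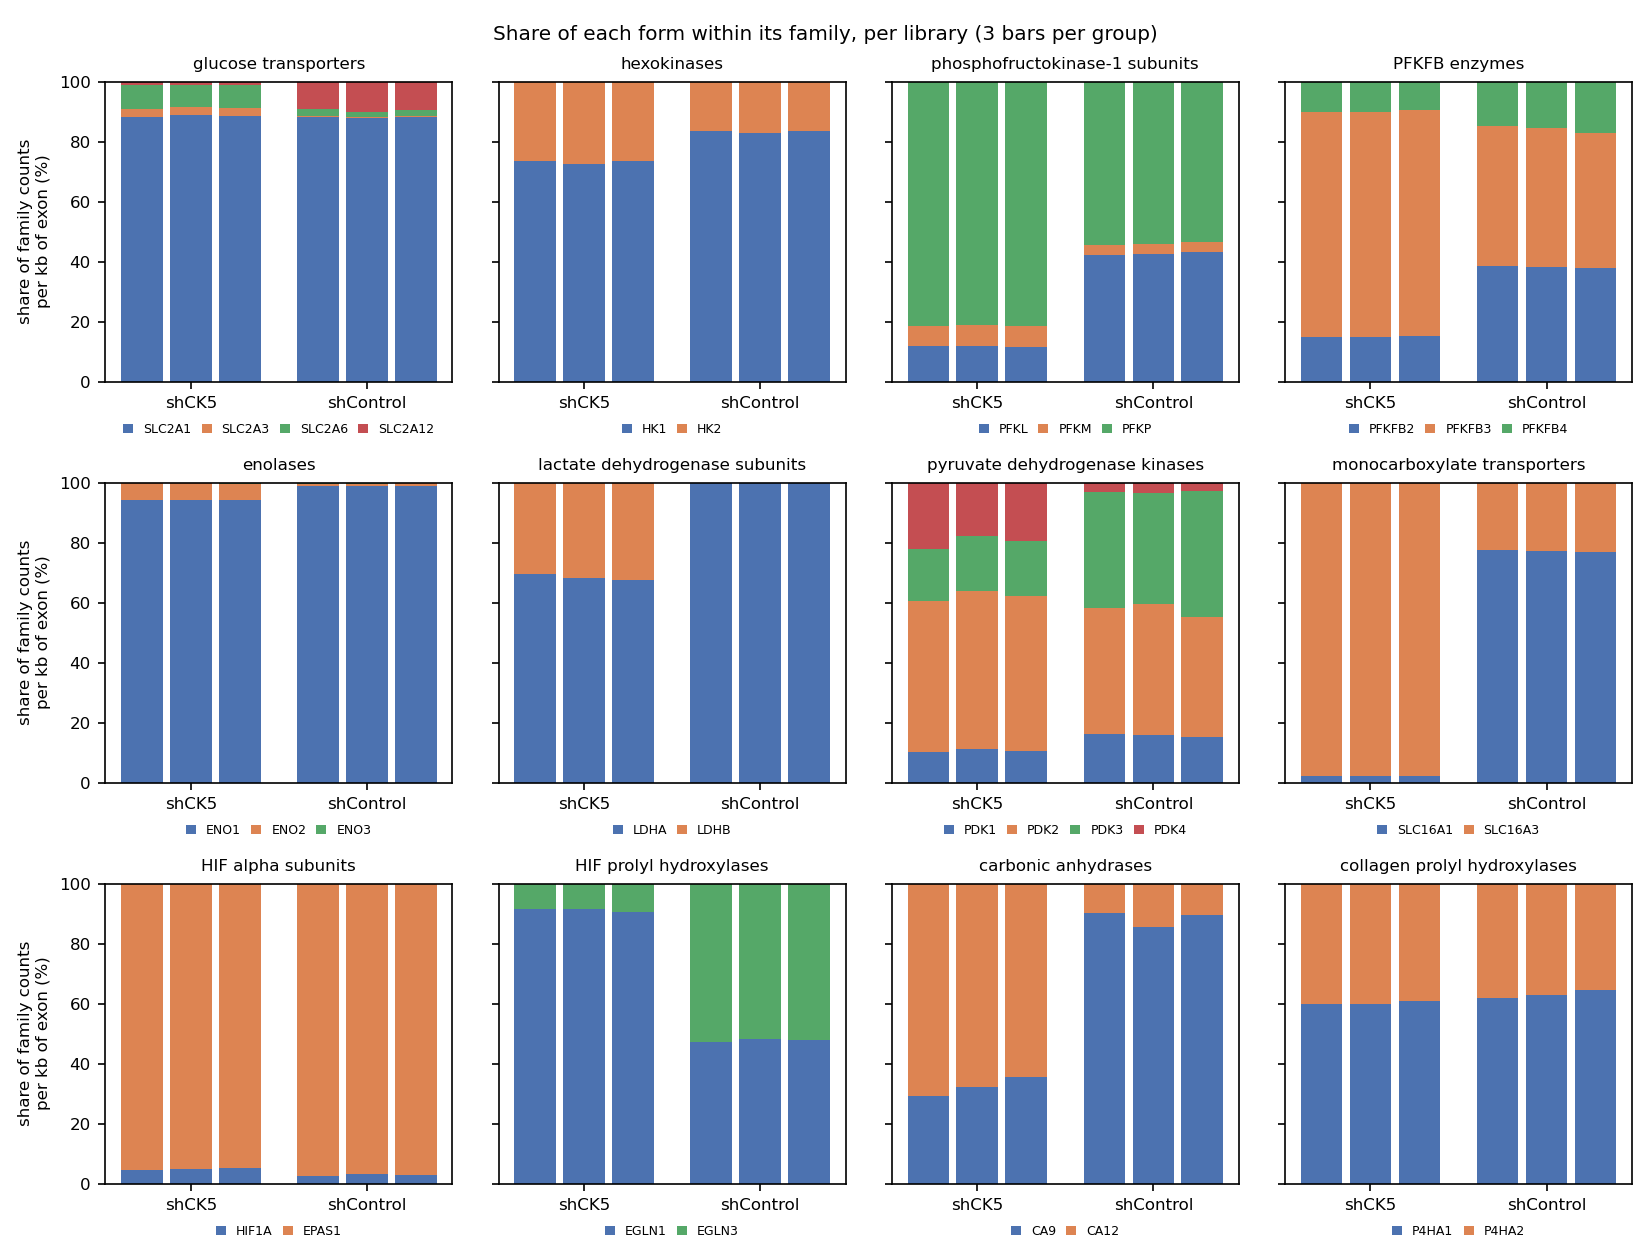
Share of each form in the counts per kilobase of merged exon of its family, in percent, with 1 bar per library, shCK5 on the left and shControl on the right of each panel. The leading form changes in the panels of monocarboxylate transporters, HIF prolyl hydroxylases and carbonic anhydrases, and LDHB fills 31.6% of the lactate dehydrogenase bars in shCK5 and 0.0804% in shControl.

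Of the 11 hypoxia genes tested, 8 rose, 2 fell and 1 did not pass, where 40.9% of all genes tested were called higher and 41.7% lower. Of the HIF alpha subunits, EPAS1 had 215.1, 215.9 and 209.5 CPM in shCK5, against 211.8, 205 and 202.5 CPM in shControl, and the groups overlapped (log2 fold change 0.05, SE 0.0273; edgeR adjusted p = 0.104). With library size alone its sign turned and it was called lower (-0.09; edgeR adjusted p = 0.00511). HIF1A rose to 7.936 ± 0.465 CPM in shCK5, against 4.388 ± 0.58 CPM in shControl (0.85, SE 0.0966; edgeR adjusted p = 1.43e-08). Per kilobase, HIF1A made up 5.01% ± 0.33 of the counts of this pair in shCK5 and 2.93% ± 0.402 in shControl. In GENCODE, 5.145% of its exon bases are shared with other genes. Of the antisense rows at this locus, HIF1A-AS1 held 78 counts in shCK5 and 128 in shControl and was not called, and HIF1A-AS2 was listed at 0. HIF-alpha protein is set mainly by its degradation, which counts of RNA do not measure.

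The EGLN enzymes are the oxygen sensors that mark HIF-alpha for destruction, and EGLN3 is itself a strong HIF target. EGLN3 (ENSG00000129521.13, chromosome 14, 33924231 to 34462774, minus strand, GRCh38) had 6.047, 5.954 and 6.719 CPM in shCK5, against 43.68, 45.12 and 44.33 CPM in shControl (log2 fold change -2.83, SE 0.0543; edgeR adjusted p = 2.49e-24). It was the lowest of all 41 log2 fold changes, and the groups were over 6-fold apart. EGLN1, the main oxygen sensor in most cells, had 64.04, 63.45 and 62.88 CPM in shCK5, against 38.44, 41.18 and 40.44 CPM in shControl (0.66, SE 0.0364; edgeR adjusted p = 9.51e-15). The share of EGLN3 per kilobase was 8.85% ± 0.601 in shCK5 and 52.3% ± 0.52 in shControl. With the longest transcript in place of the merged exons, it was 19.7% in shCK5 and 73.4% in shControl. EGLN2 was listed at 0 in all libraries, as was its neighbour RAB4B, and the read-through row RAB4B-EGLN2 held 38 counts in shCK5 and 82 in shControl, so no order can be given for all 3 enzymes.

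Carbonic anhydrases 9 and 12, membrane enzymes that buffer the acid made by glycolysis, also changed places at low levels. CA9, one of the most hypoxia-specific genes known, fell to 0.3527, 0.4852 and 0.5392 CPM in shCK5, from 28, 37 and 39 counts, against 2.456, 2.282 and 2.787 CPM in shControl, from 183, 182 and 200 counts (log2 fold change -2.45, SE 0.203; edgeR adjusted p = 4.09e-11). CA12 rose to 3.754, 4.459 and 4.258 CPM in shCK5, against 1.181, 1.705 and 1.421 CPM in shControl (1.53, SE 0.143; edgeR adjusted p = 4.54e-10). Neither pair of groups overlapped. CA9 made up 32.4% ± 3.26 of the pair's counts per kilobase in shCK5 and 88.4% ± 2.56 in shControl. For CA9, 38.5% of exon bases lie in exons of ARHGEF39 on the other strand, which may add or remove reads.

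The other hypoxia targets were higher. BNIP3, a mitophagy receptor, had 114.4, 112.9 and 114.6 CPM in shCK5, against 22.97, 24.37 and 22.55 CPM in shControl (log2 fold change 2.29, SE 0.0362; edgeR adjusted p = 4.57e-26). Rows named as its processed copies held 5.84% of its counts in shCK5 and 4.29% in shControl. NDRG1, a stress-induced gene, had 59.41 ± 1.46 CPM in shCK5 and 21.41 ± 1.23 CPM in shControl (1.47). ADM, which encodes the vasodilator peptide adrenomedullin, had 20.82 ± 1.24 CPM in shCK5 and 17.72 ± 1.38 CPM in shControl (0.23), and its call was lost with library size alone (0.09; edgeR adjusted p = 0.163). P4HA1 and P4HA2, the catalytic subunits of collagen prolyl hydroxylase, rose together, with 36.39 ± 0.619 and 65.99 ± 0.899 CPM in shCK5, against 15.03 ± 1.01 and 24.18 ± 0.535 CPM in shControl. Their log2 ratio moved by -0.17. Which of the pair leads per kilobase depends on the length used, with P4HA1 at 60.3% in shCK5 and 63% in shControl by merged exons, and 39.4% in shCK5 and 42.2% in shControl by the longest transcript.

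**Figure D3:**
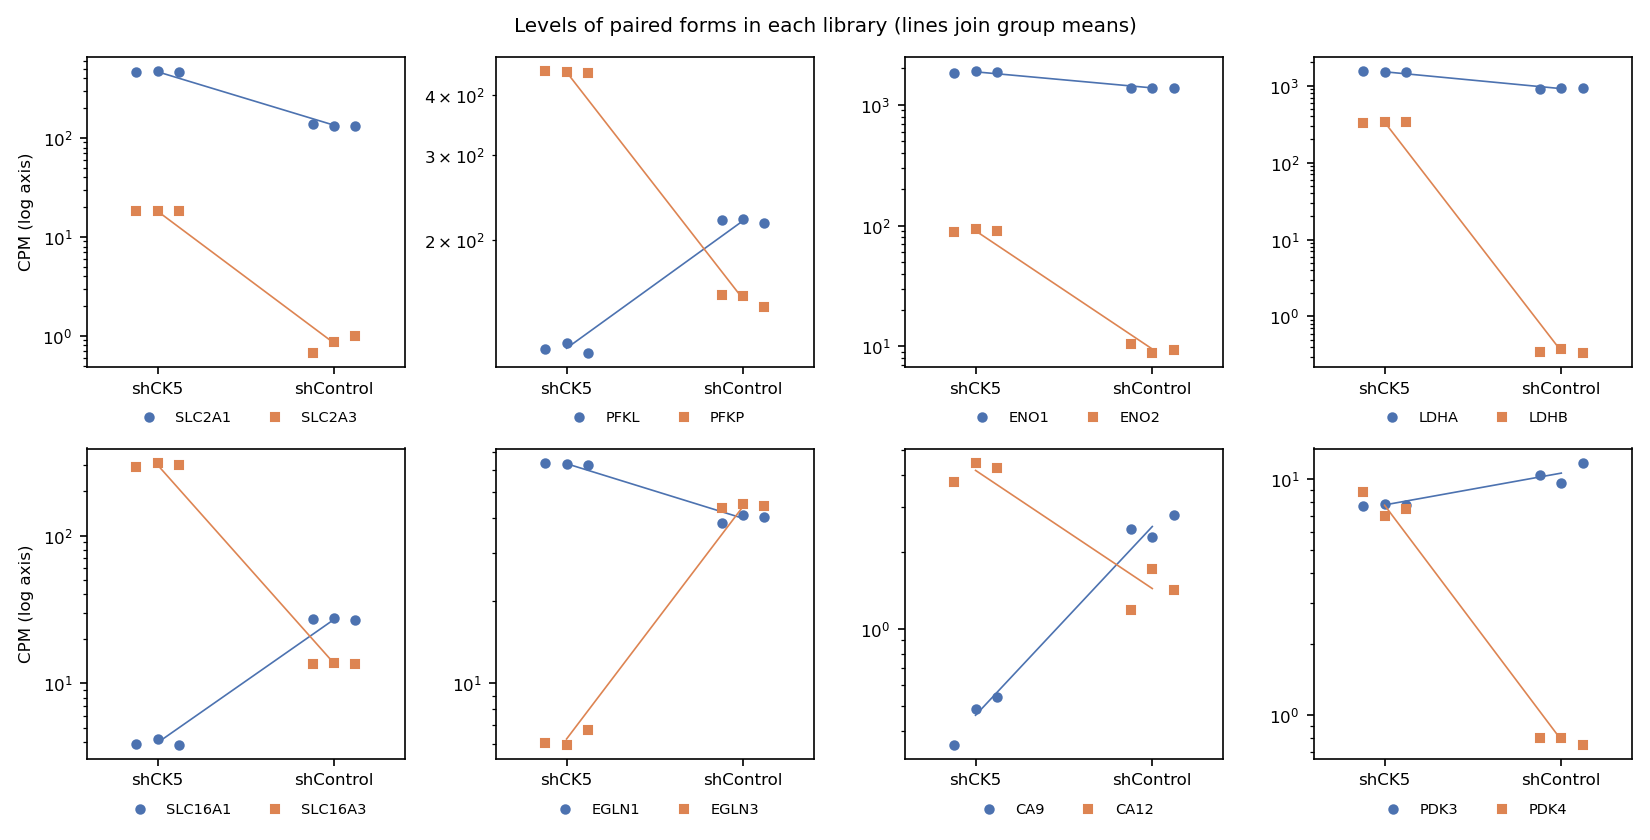
Scaled CPM of paired forms in each library on a log axis, shCK5 left and shControl right, with lines joining the group means. The lines cross for PFKL and PFKP, SLC16A1 and SLC16A3, EGLN1 and EGLN3, and CA9 and CA12, while LDHB and SLC2A3 rise toward LDHA and SLC2A1 in shCK5 without reaching them; CPM are not divided by length here, and per kilobase PFKP led in both groups.

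Over all families, 28 pairs of forms could be compared by their count ratio within each library, and 3 could not because of ALDOC and EGLN2. In 27 of the 28 the log2 ratios of the groups did not overlap, where 84.2% of single genes did not either; the exception was ENO1 to ENO3. An exact two-sided permutation test of 3 against 3 libraries cannot go below p = 0.1, and each of the 27 had this value (0.104 adjusted over the 28 pairs), so none passed the threshold. The largest shifts were those of LDHA to LDHB (-9.14 on the log2 scale), SLC16A1 to SLC16A3 (-7.25) and SLC2A3 to SLC2A12 (5.66), and the smallest beside ENO1 to ENO3 was P4HA1 to P4HA2. The most abundant listed form per kilobase differed between all shCK5 and all shControl libraries in 3 of 13 families: SLC16A3 took the place of SLC16A1, EGLN1 of EGLN3, and CA12 of CA9. For the EGLN enzymes this holds between EGLN1 and EGLN3 only, since EGLN2 was listed at 0, and CA9 and CA12 were at low levels.

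The 250 bases before the transcription start of 6 genes with large changes are given here because these genes are known hypoxia targets or, for LDHB, changed most. They are RefSeq windows on GRCh38.p14, 5′ to 3′, and capitals mark the core of the HIF binding site, searched as ACGTG and GCGTG on both strands, with neighbouring and overlapping matches run together. SLC16A3 has 5 annotated starts, and the window shown is that with 2 matches of ACGTG.
LDHB promoter, chr12:21657843-21658092, minus strand: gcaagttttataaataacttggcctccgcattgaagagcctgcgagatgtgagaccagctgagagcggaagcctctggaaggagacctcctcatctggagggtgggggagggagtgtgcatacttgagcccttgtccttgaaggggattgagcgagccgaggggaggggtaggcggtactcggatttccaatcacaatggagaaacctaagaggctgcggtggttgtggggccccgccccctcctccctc
SLC16A3 promoter, chr17:82228792-82229041, plus strand: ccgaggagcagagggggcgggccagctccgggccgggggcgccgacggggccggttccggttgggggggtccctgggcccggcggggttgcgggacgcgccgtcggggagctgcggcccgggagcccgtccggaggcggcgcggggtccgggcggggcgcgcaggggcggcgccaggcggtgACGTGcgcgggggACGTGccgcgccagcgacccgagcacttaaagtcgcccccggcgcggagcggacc
ENO2 promoter, chr12:6914330-6914579, plus strand: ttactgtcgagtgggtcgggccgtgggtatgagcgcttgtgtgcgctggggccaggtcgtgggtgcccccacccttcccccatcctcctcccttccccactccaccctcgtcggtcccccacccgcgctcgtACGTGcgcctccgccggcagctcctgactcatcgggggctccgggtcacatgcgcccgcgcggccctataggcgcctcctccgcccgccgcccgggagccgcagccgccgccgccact
BNIP3 promoter, chr10:131981924-131982173, minus strand: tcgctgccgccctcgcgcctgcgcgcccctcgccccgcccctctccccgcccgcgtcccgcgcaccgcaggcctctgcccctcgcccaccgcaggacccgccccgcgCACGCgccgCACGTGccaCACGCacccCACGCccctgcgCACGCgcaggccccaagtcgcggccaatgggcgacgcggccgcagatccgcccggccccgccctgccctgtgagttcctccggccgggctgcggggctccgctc
EGLN3 promoter, chr14:33951075-33951324, minus strand: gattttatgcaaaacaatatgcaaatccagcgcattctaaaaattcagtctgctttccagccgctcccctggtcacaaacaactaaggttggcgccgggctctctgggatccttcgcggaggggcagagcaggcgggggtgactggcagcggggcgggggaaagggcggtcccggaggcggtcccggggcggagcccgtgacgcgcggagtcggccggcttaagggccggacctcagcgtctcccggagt
CA9 promoter, chr9:35673678-35673927, plus strand: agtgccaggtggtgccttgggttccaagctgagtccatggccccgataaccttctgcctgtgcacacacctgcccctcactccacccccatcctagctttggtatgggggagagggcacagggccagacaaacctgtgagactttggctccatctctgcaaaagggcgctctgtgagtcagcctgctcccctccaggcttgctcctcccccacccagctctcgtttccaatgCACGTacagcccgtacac
Of the genes called higher, ENO2 and BNIP3 have matches in these windows and LDHB has none. The SLC16A3 window was picked for its matches, so it is not counted here, and windows 1 and 3 of its 5 hold none. Of those called lower, CA9 has a match and EGLN3 has none. RefSeq windows matched 39 of the 43 genes; NDRG1, PFKFB2, SLC16A1 and SLC2A3 had no entry. In their 70 windows, some of which overlap, 34.3% held ACGTG and 32.9% GCGTG, against 18.5% and 32.2% of all 35116 windows. A match is a string of letters and not a bound site.

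Other genes of the same pathways moved in both directions in near-equal number. Over 7 further lists, 87 of 101 genes were tested, 40 were higher and 39 lower, and the median log2 fold change was 0.01. The share was 46% higher and 44.8% lower, against 40.9% and 41.7% of all genes tested. Among other glycolysis enzymes, 6 of 12 were higher and 4 lower. The hexokinase-like gene HKDC1 rose to 4.211 ± 0.409 CPM in shCK5, against 0.6605 ± 0.25 CPM in shControl, and BPGM, which makes 2,3-bisphosphoglycerate, fell to 15.15 ± 0.871 CPM in shCK5, against 46.56 ± 2.5 CPM in shControl. ADPGK, an ADP-dependent glucokinase, had a log2 fold change of 0.89. Of 13 other transporters and regulators of glucose uptake, 6 were higher and 6 lower. TXNIP, an arrestin that is induced by glucose and removes GLUT1 from the cell surface, had 87.16 ± 5.52 CPM in shCK5, from 19865 counts, and 0.05413 ± 0.0293 CPM in shControl, from 12 counts (10.64, SE 0.113; edgeR adjusted p = 1.68e-29). SLC16A7, which encodes the monocarboxylate transporter MCT2, rose by 6.20 on the log2 scale, and SLC2A10, which encodes GLUT10, fell by 5.50.

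Over the branches that leave glycolysis, the counts below stand against 40.9% of all genes tested called higher and 41.7% lower. In the serine branch, 5 of 6 genes fell and 1 rose; 2 of the 5 fell by less than 0.1 on the log2 scale, and 3 were called lower by DESeq2, without shCK5 replicate 1 and without shControl replicate 3. PHGDH, which diverts 3-phosphoglycerate and is amplified in MDA-MB-468, had 19.13 ± 0.984 CPM in shCK5 and 472.9 ± 10.8 CPM in shControl (log2 fold change -4.63, SE 0.0364; edgeR adjusted p = 6.57e-32). PSPH, the last enzyme of serine synthesis, had 49.28 ± 1.63 CPM in shCK5 and 285.7 ± 2.37 CPM in shControl, and MTHFD2, a mitochondrial folate enzyme, had a log2 fold change of -1.23. In the pentose phosphate pathway, 4 of 7 genes fell (57.1%) and 3 rose (42.9%). The list median was -0.68 on the log2 scale, against -0.02 for all genes tested. PGLS, which hydrolyses 6-phosphogluconolactone, and RPE, an epimerase of the non-oxidative arm, had log2 fold changes of -1.10 and -0.84. TKT and TALDO1, the enzymes that pass carbon between sugars in the non-oxidative arm, rose, TKT to 506.4 ± 9.89 CPM in shCK5, against 353.7 ± 6.91 CPM in shControl, and TALDO1 to 264.5 ± 3.59 CPM in shCK5, against 156.9 ± 3.86 CPM in shControl. They fall outside the rule for named genes and were picked after seeing their values. Pyruvate entry and gluconeogenesis genes were higher in 8 of 14 and lower in 6, where the share lower was 42.9%. FBP1, which opposes phosphofructokinase-1, had 53.46 ± 0.596 CPM in shCK5 and 4.977 ± 0.38 CPM in shControl, its muscle counterpart FBP2 had a log2 fold change of -2.40, and PDHX, a binding protein of the pyruvate dehydrogenase complex, of -1.15.

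Hypoxia genes beyond the 43 did not share one direction. Of 23 other hypoxia-induced genes tested, 8 were higher (34.8%), 11 lower (47.8%) and 4 not called, with a median log2 fold change of -0.14. Over all genes tested, 40.9% were higher and 41.7% lower, with a median of -0.02, so this list lay near the background. VEGFA, the angiogenic factor, had 124.4 ± 1.58 CPM in shCK5 and 123.6 ± 7.56 CPM in shControl (0.01, SE 0.035; edgeR adjusted p = 0.785), and was picked after seeing its values. ANGPTL4, an inhibitor of lipoprotein lipase, had a log2 fold change of 2.56. STC2, which encodes a stanniocalcin, fell to 24.97 ± 1.09 CPM in shCK5, against 241.9 ± 3.17 CPM in shControl. Of 12 regulators of the pathway, 8 were higher (66.7%, against 40.9% of all genes) and 3 lower. ARNT2, a partner of HIF-alpha in place of ARNT, had 33.88 ± 2 CPM in shCK5 and 3.819 ± 0.398 CPM in shControl, CUL2, a scaffold of the VHL ubiquitin ligase, had a log2 fold change of 0.98, and EP300, a HIF coactivator, of -0.89.

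**Figure D4:**
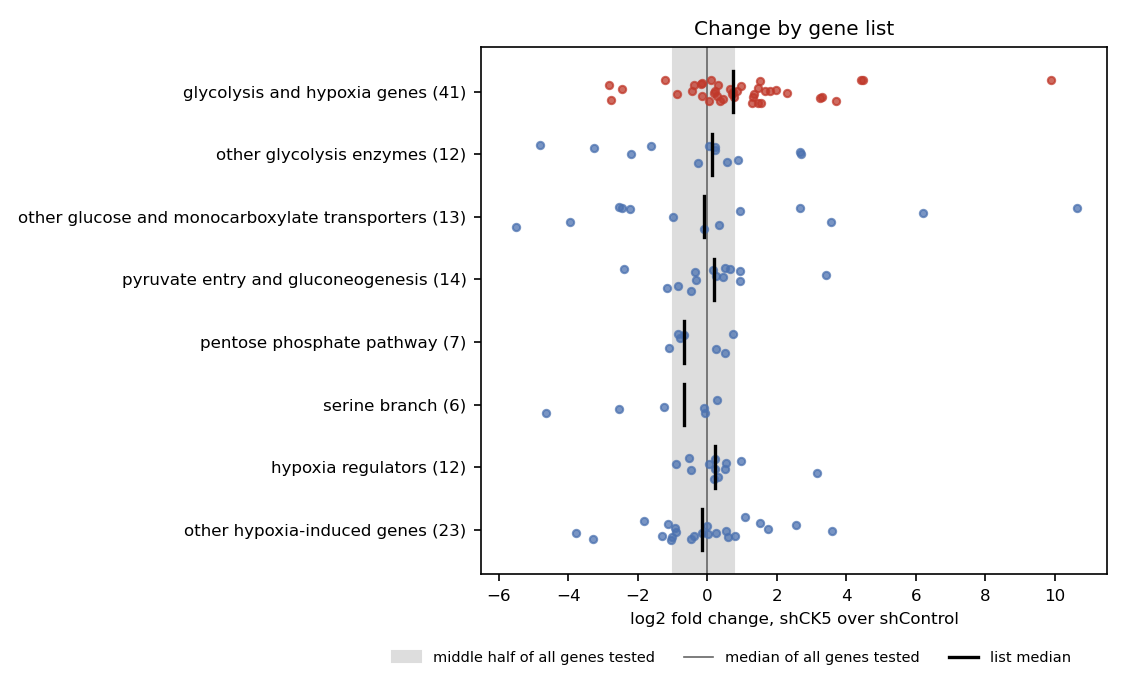
Log2 fold change, shCK5 over shControl, of each tested gene of the glycolysis and hypoxia genes (red) and of 7 further lists (blue), with the number tested in parentheses. Black bars are list medians, and the grey band from -0.98 to 0.77 spans the quartiles of all genes tested; the median of the red genes is 0.73 and those of the blue lists lie between -0.68 and 0.22.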

How the data were processed

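The authors deposited 1 table of counts without normalization, 1 row per gene name. Trimming and alignment tools listed by the submitters' processing notes are cutadapt, STAR and SAMtools, besides Cufflinks, with the build GRCh38. The counting program, strand setting and annotation were not given in the sources used. Sorted alignments were counted, per the file headers. Between 63.1% and 65% of counts above 20 were even, and the reason was not tested.

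Genes were filtered with filterByExpr, scaled by TMM and tested in R 4.3.3 with edgeR 4.0.16 (glmQLFit, glmQLFTest) over 19567 genes, with Benjamini-Hochberg adjustment at 0.05; the script was tested on simulated data. CPM are counts scaled by effective library size. Lengths and coordinates are from GENCODE v29 (GRCh38), which need not be the authors' annotation. Ratios used a pseudocount of 0.5. Intervals and SD cover these libraries only.

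The genes and lists were chosen with earlier results of these data known. All 43 genes are named; of each further list, the 3 with the largest change among called genes whose groups do not overlap and whose mean is at least 1 CPM, except that some are not reported here. Other scalings, DESeq2 1.42.0, no filter, a replicate block and left-out libraries were tried.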

Additional observations from a re-analysis of the deposited data

How the results depend on the processing

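The counts of called genes stayed within 1.5 times of 29 higher and 10 lower under all 12 alternatives: 26 to 30 were higher and 10 or 11 lower, with 28 to 30 higher and 10 lower when 1 library was left out. With the replicate number as a block, 29 were higher and 10 lower, and no call of the 41 genes changed. Same-numbered libraries deviated from their group means with correlations of 0.00804, -0.015 and -0.00473, so no shared deviation was seen. These values cannot tell whether same-numbered libraries were prepared together. Library size alone turned the sign of PDK1 (-0.02) and EPAS1 (-0.09) and ended the calls of PFKFB4 (0.15), ENO3 (0.19) and ADM (0.09). EPAS1 was called higher without a filter (0.06), without shCK5 replicate 3 (0.08) and without shControl replicate 1 (0.07). The cause was not tested. The 3 families with another leading form did not change with the length or set of paralogs used; exon bases not shared with another gene were added as a length after seeing the data. A pseudocount of 5 moved the LDHA to LDHB shift to -8.92.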

Other observations

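Rows outside the 43 genes bear on their families. LDHAP4, named as a processed copy of LDHA, had 34.77 ± 0.996 CPM in shCK5 and 3.607 ± 0.0913 CPM in shControl (log2 fold change 3.27; edgeR adjusted p = 1.40e-24), a larger change than that of LDHA itself. Other paralogs of the same families moved in both directions. SLC2A14 fell by 2.53 on the log2 scale, the lactate transporter gene SLC16A8 by 2.58 and the collagen prolyl hydroxylase gene P4HA3 by 1.99, the last with 0.9284 ± 0.231 CPM in shCK5 and 3.694 ± 0.107 CPM in shControl. SLC2A13 and HKDC1 each rose by 2.68 and SLC16A7 by 6.20. ARRDC4, an arrestin regulated by glucose together with TXNIP, had 2.81 ± 0.495 CPM in shCK5 and 0.2372 ± 0.0607 CPM in shControl (3.55; edgeR adjusted p = 3.55e-13). These were chosen after their values were seen.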
